A study of Mus musculus with 458 samples.

Results

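The genes described here encode the translation initiation factors of the mouse, followed in single haematopoietic stem cells (HSCs) whose clones differed in the blood lineages they replenished. Members were the genes of the expression table whose symbols begin with Eif and a digit from 1 to 6, without the Y-linked Eif2s3y, which gave 58 of 22645 listed genes. By factor these were 5 eIF1 genes, 5 eIF2 genes, 5 eIF2B genes, 4 kinases of eIF2, 14 eIF3 genes, 13 eIF4 genes, 3 eIF4E-binding proteins, 4 eIF5 genes, Eif6, and 4 genes listed as Eif2c1 to Eif2c4. The last 4 carry older symbols of Ago1 to Ago4, the Argonaute proteins of small RNA silencing, and 54 members remain without them. Levels were compared between groups of mice for 53 members. The other 5 (Eif2c2, Eif2c4, Eif3j1, Eif3j2 and Eif4e1b) did not reach a mean of 1 RPKM (reads per kilobase, a depth- and length-scaled level) in at least 2 of the 6 mice.

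The cells were donor-derived HSCs of C57BL/6 mice, taken from the marrow of recipients in each of which 1 Vwf-positive HSC had been transplanted. The recipients had been observed over 16 weeks and classed by the lineages restored. Multilineage mice (MUL), mice with restriction to platelets, erythroid and myeloid cells (PEM) and mice with restriction to platelets (PLT) were compared, with 2 mice in each group, and no age was given. Every cell carried the sorted phenotype LSK CD150+CD48-CD45.2+, in which CD45.2 marks the donor. All HSCs of a mouse descend from its 1 transplanted cell, so clone, host and mouse cannot be told apart.

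The measured cells were 163 from MUL, 118 from PEM and 177 from PLT mice. PEM mouse 2 gave 25 cells and each other mouse 78 to 93. A cell had a median of 4.9 M mapped reads (range 1.3 to 17.3 M), and the medians of the mice ranged from 4.28 to 5.32 M. All 12 HSC markers listed for the sorted cells were above 0 in every mouse, with shares of cells at 1 RPKM or more that ran from 3.23% to 16% for Fgd5 to 65.5% to 88.2% for Meis1. Slamf1, which encodes the sorted antigen CD150, was at that level in 4.71% to 37.6% of the cells of a mouse. Neutrophil markers summed to 14927 RPKM in PEM mouse 2, 2929 in PLT mouse 1 and 33.5 to 964 in the other mice. Of the 9 neutrophil markers, 4 to 6 were above 0 in a mouse, while Elane and Mpo were at 0 in all. Mature erythroid markers summed to 489 RPKM in PEM mouse 2 and 18.4 to 142 elsewhere, and B cell markers to 331 in PEM mouse 2 and 26.3 to 51.5 elsewhere, with Pax5 and Igll1 at 0 in all mice. Megakaryocyte markers summed to 249 and 59.7 RPKM in MUL, 542 and 1522 in PEM and 175 and 708 in PLT mice, with Gp6 at 0 in all. The part of such transcripts in the results was not tested beyond leaving out cells with markers of mature lineages, a set that takes no megakaryocyte markers. That step dropped each cell with at least 3 markers of the same mature list above 0. It kept 47 and 54 cells in MUL, 39 and 11 in PEM and 54 and 49 in PLT mice. Among these lists, at least 3 T and NK cell markers were above 0 in 8% to 47.3% of a mouse's cells. At 1 RPKM or more that share was 0% to 6.45%. PEM mouse 2 and PLT mouse 2 were recorded as female and the other 4 mice as male. Both MUL mice shared 1 code at the start of their cells' titles and every other mouse had its own. The labels do not say what the code denotes, and it cannot be told apart from the group.

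Translation of most mRNAs begins when eIF4E binds the 5′ cap and, with the scaffold eIF4G and the RNA helicase eIF4A, recruits the small ribosomal subunit. That subunit carries eIF1, eIF1A, eIF3, eIF5 and a ternary complex of eIF2, GTP and initiator tRNA, and it scans to the start codon, where eIF5 promotes GTP hydrolysis and eIF5B joins the large subunit. eIF2B recharges eIF2 with GTP, and the Eif2ak kinases slow this step by phosphorylating eIF2α. The 4E-binding proteins, targets of mTOR, keep eIF4E from eIF4G. HSCs are known for a low rate of protein synthesis compared with progenitors, and 4E-binding proteins are known to help keep it low.

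Many mRNAs of the translation machinery start with a pyrimidine tract, and the starts of the members were therefore read from the RefSeq promoter table (GRCm38.p6). Below are 40 bases centred on the start for Eif4a1 and its paralog Eif4a2, and for Eif4h and Eif3f, which with other members differ in level below. The pair is shown because its 2 genes are compared with each other, and Eif3f beside Eif4h as an example with a match and one without. Capitals mark a match to the motif CCTTT, the motif CTTTC, the motif CTTCC or the motif CTCTT that lies within 10 bases of the start.

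Eif4a1: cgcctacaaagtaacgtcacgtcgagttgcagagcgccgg

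Eif4a2: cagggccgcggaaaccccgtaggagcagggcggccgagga

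Eif4h: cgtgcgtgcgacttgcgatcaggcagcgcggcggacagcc

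Eif3f: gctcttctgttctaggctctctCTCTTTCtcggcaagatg

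These lie at chr11:69672404-69672443 on the minus strand (Eif4a1), chr16:23107448-23107487 on the plus strand (Eif4a2), chr5:134639390-134639429 on the minus strand (Eif4h) and chr7:108934395-108934434 on the plus strand (Eif3f). Of these 4 windows, that of Eif3f held a match, in which CTCTT and CTTTC overlap. Of 45 members in the table, 8 (17.8%) had at least 1 of the 4 motifs on the sense strand, against 3000 of 27025 genes (11.1%). On the antisense strand 4 members (8.89%) had one, against 11.2% of all genes. A further 4 windows with a sense match are shown, for an eIF3 subunit, an eIF2 subunit, an eIF2B subunit and an eIF2 kinase. Eif1ad, Eif2ak4 and Eif4enif1 were the other members with one.

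Eif3l: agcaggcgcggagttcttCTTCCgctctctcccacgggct

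Eif2s3x: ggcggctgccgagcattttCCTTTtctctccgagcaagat

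Eif2b5: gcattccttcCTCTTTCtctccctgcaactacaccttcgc

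Eif2ak1: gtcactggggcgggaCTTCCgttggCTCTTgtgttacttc

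Their positions are chr15:79075203-79075242 (plus strand), chrX:94212632-94212671 (minus), chr16:20498797-20498836 (plus) and chr5:143817772-143817811 (plus). A match is a description of these letters and says nothing of what binds or regulates the RNA.

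The most abundant member was Eif5a, which encodes a hypusine-containing factor of elongation and termination, at 658 RPKM as the mean of the 6 mice. It was followed by Eif3e at 357, Eif3k at 305, Eif4a1 at 288, Eif1 at 250, Eif4a2 at 239, Eif3m at 230 and Eif5 at 205 RPKM. Neighbours in this order overlapped between mice (Eif1 ranged from 194 to 363 RPKM and Eif4a2 from 189 to 290), whereas Eif5a was the highest member in every mouse but PLT mouse 2, where Eif3e (523) and Eif4a1 (419) exceeded its 407 RPKM. In all, 19 members had a mean of 100 RPKM or more and 7 lay under 1 RPKM. Eif1, Eif4a1 and Eif5a were at 1 RPKM or more in at least 80% of the cells of every mouse. At the other end, 12 members were at 1 RPKM or more in no more than 20% of the cells of any mouse: Eif2ak3, Eif2ak4, Eif2c1 to Eif2c4, Eif3j1, Eif3j2, Eif4e1b, Eif4ebp2, Eif4ebp3 and Eif5a2. The members held a summed 4939 to 6049 RPKM in a mouse, 0.896% to 1.04% of all RPKM.

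**Figure D1:**
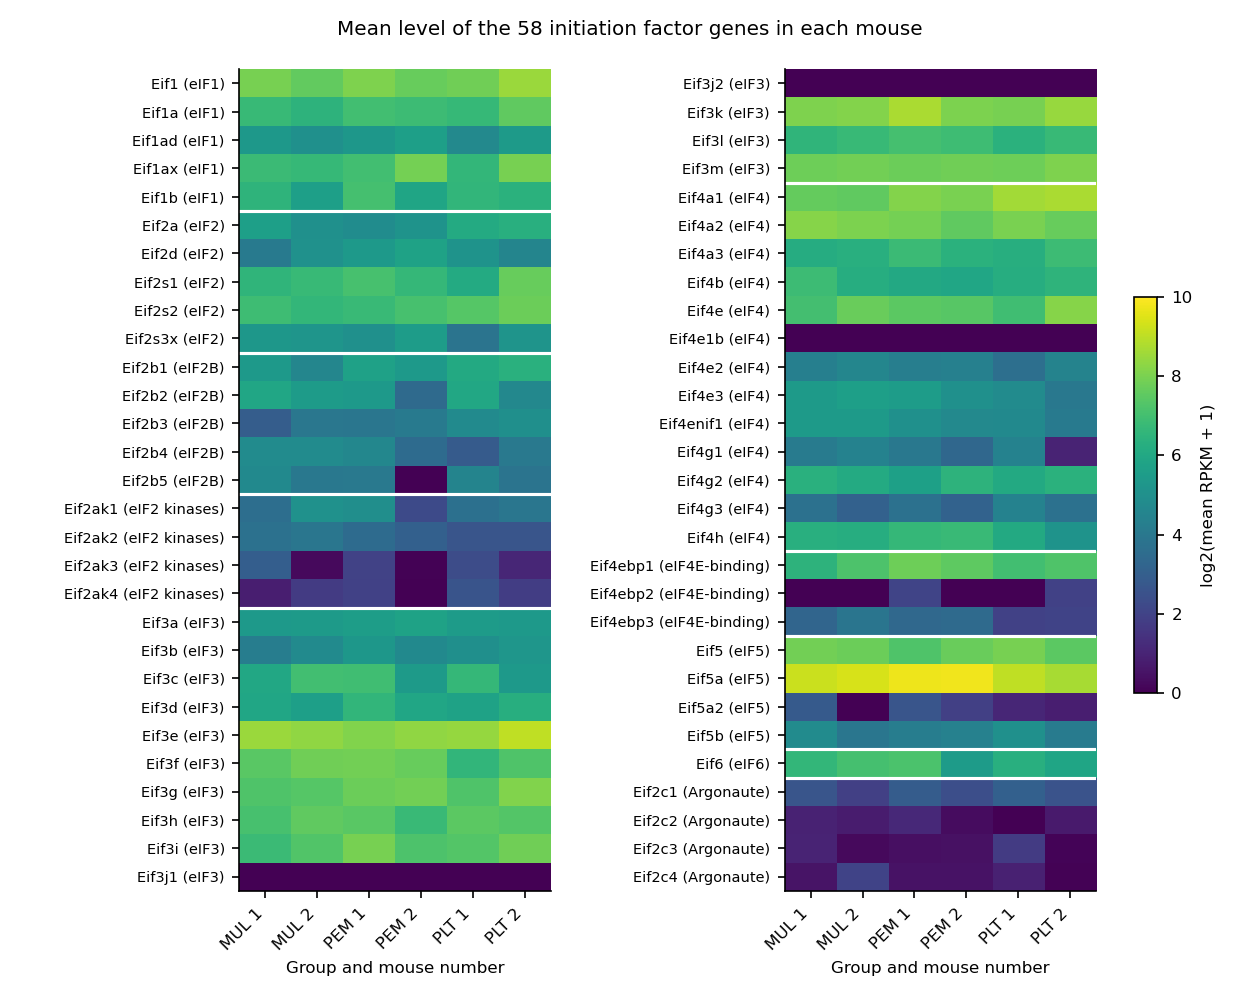
Mean level of each of the 58 members in each of the 6 mice (columns) as log2(mean RPKM + 1), with members in rows and white lines between factor groups. Eif5a is the brightest row, while Eif3j1 and Eif4e1b are at 0 in all 6 mice and Eif2b5 is at 0 in PEM mouse 2.

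No member differed between groups past the threshold of a limma test adjusted over all 11337 genes tested. That count was 0 of 53 in each of the 3 contrasts, and over all genes 0.00882% (1 gene) passed in PLT minus MUL, 0% in PEM minus MUL and 0% in PLT minus PEM. The lowest adjusted p of a member was 0.48 in PLT minus MUL, 0.867 in PEM minus MUL and 0.545 in PLT minus PEM. The differences below are therefore values of 2 mice against 2 that did not pass the adjusted test, and a fold change is a difference of log2(mean RPKM + 1).

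In PLT minus MUL, 4 members were higher with an unadjusted p under 0.05 (7.55% of 53, against 2.44% of all genes). These were Eif4a1, Eif2b1, Eif2b3 and Eif2s2. In the lower direction 0 members had such a p, against 5.96% of all genes. Both PLT mice lay above both MUL mice for 8 members (15.1%; all genes 14.8%) and below them for 11 (20.8%; all genes 24.9%). The median fold change of the members was 0.09, with 30 higher and 23 lower, beside -0.18 over all genes, of which 41.6% were higher.

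In PEM minus MUL, 0 members had an unadjusted p under 0.05 in either direction, where 2.8% of all genes were higher and 2.79% lower. Both PEM mice lay above both MUL mice for 12 members (22.6%; all genes 17.5%) and below them for 9 (17%; all genes 18.3%). The median fold change was 0.08, beside -0.04 over all genes.

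In PLT minus PEM, Eif2a was higher with an unadjusted p under 0.05, 1 of 53 where 2.49% of all genes were. Eif5a, Eif4h and Eif3f were lower, 3 of 53 where 5.88% of all genes were. Both PLT mice lay above both PEM mice for 8 members (15.1%; all genes 14.1%) and below them for 11 (20.8%; all genes 21.9%), with a median of 0.03 beside -0.13. The contrasts share their groups of mice, so their counts are not independent. The shares of members without overlap lay near those of all genes in each contrast.

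**Figure D2:**
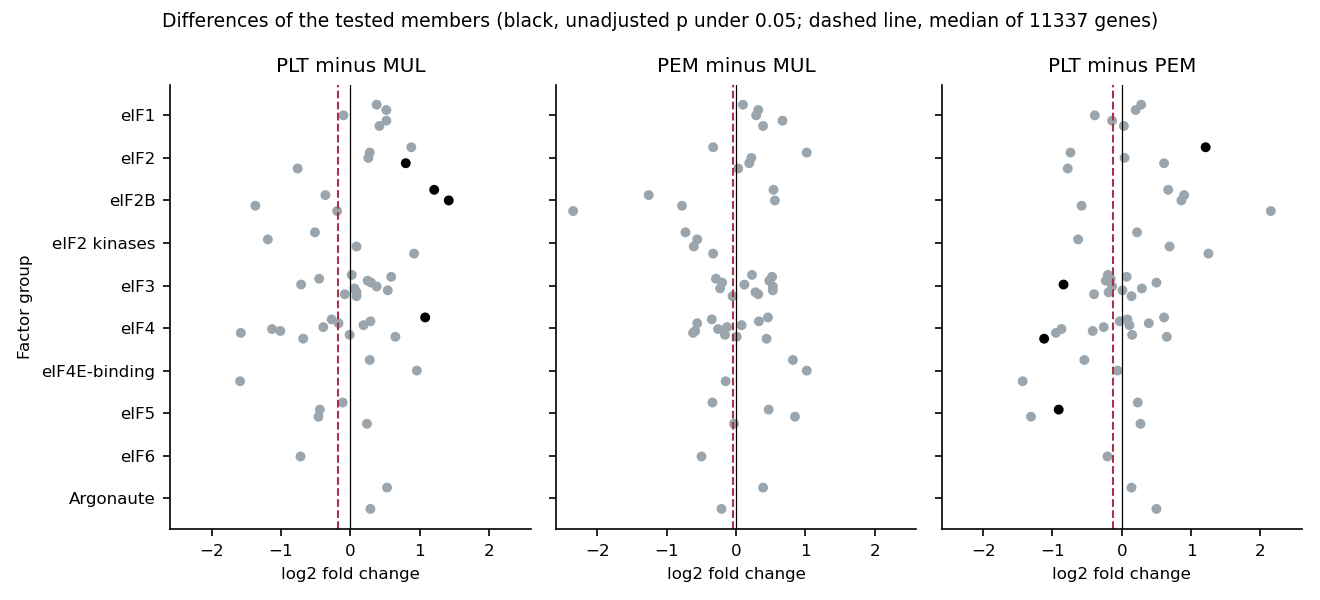
Log2 fold change (x axis) of each of the 53 tested members, 1 point each, by factor group (y axis) in the 3 contrasts; black points have an unadjusted p under 0.05 and the dashed line is the median of all 11337 genes. Points of most factor groups lie on both sides of 0, with 4 black points in PLT minus MUL, 0 in PEM minus MUL and 4 in PLT minus PEM.

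The cap-binding and helicase factors come first. Eif4a1, the main cytoplasmic eIF4A helicase, stood at 197 and 187 RPKM in MUL, 281 and 250 in PEM and 393 and 419 in PLT mice. The 3 groups did not overlap and stood in the order MUL, PEM, PLT. In that order the group means were 192 ± 7.2, 265 ± 21.9 and 406 ± 18.5 RPKM (SD, n = 2 mice). The fold change of PLT minus MUL was 1.08 (SE 0.29, limma unadjusted p = 0.00571, adjusted p = 0.48), and it lay between 0.85 and 1.93 under every alternative that was run. Without cells bearing markers of mature lineages, which left 11 to 54 cells of a mouse, it was likewise 1.08. The place of PEM was less steady. PEM minus MUL was 0.46 (SE 0.29, limma adjusted p = 0.891), and 0.06 in the cells whose titles carry P2. PLT minus PEM was 0.61 (SE 0.29, limma adjusted p = 0.61), and 0.38 in the cells whose titles carry P1. Per cell the order MUL, PEM, PLT held as well, with medians of 126 and 137 RPKM in MUL, 267 and 178 in PEM and 352 and 399 in PLT mice. The gene lies at chr11:69666936-69672423 on the minus strand (mm10). Of its exonic 50-base windows 28.4% also occur in other genes, mostly in the pseudogene Eif4a-ps4, so that reads of these copies may be counted with it.

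Eif4a2, a paralog of Eif4a1 that is also a helicase of this complex, did not follow this order. Its values were 290 and 258 RPKM in MUL, 242 and 189 in PEM and 251 and 203 in PLT mice, with PEM and PLT overlapping and both below MUL. The PLT minus MUL fold change was -0.27 (SE 0.32, limma adjusted p = 0.859). Eif4a3, the paralog of the exon junction complex, was at 73.0 and 78.8 RPKM in MUL, 111 and 82.0 in PEM and 76.0 and 114 in PLT mice.

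The balance of the pair accordingly differed between groups. Eif4a1 made up 40.5% and 42.0% of the summed RPKM of Eif4a1 and Eif4a2 in MUL, 53.8% and 56.9% in PEM and 61.0% and 67.3% in PLT mice. Cells with more Eif4a1 than Eif4a2 were 52.6% and 50.6% in MUL, 59.1% and 56.0% in PEM and 65.6% and 79.8% in PLT mice. The sum of the pair was 487 and 445 RPKM in MUL, 523 and 439 in PEM and 644 and 623 in PLT mice. Among cells with 1800 to 3000 detected genes the percent of cells with more Eif4a1 was 41.5 and 45.2 in MUL, 41.7 and 54.5 in PEM and 60.0 and 76.8 in PLT mice, so that MUL and PEM overlapped there. The pair's balance was chosen after its values were seen and no test of it is given.

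The share of Eif4a1 in the summed RPKM was recomputed in 4 subsets of cells. In cells with 1800 to 3000 detected genes it was 33.3% and 36.9% in MUL, 41.6% and 55.8% in PEM and 58.4% and 64.5% in PLT mice. Without cells that had at least 3 markers of a mature blood lineage above 0 it was 38.4% and 39.5% in MUL, 54.0% and 58.7% in PEM and 66.6% and 62.3% in PLT mice. Cell titles carry a part P1 or P2, and in P1 cells the PEM and PLT mice overlapped (PEM mouse 2 at 61.9%, PLT mouse 1 at 59.4%). In P2 cells PEM mouse 2 (11 cells) stood at 45.3%, near the MUL mice at 39.1% and 42.6%. Both MUL mice lay below the other 4 mice in all 5 sets of cells.

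**Figure D3:**
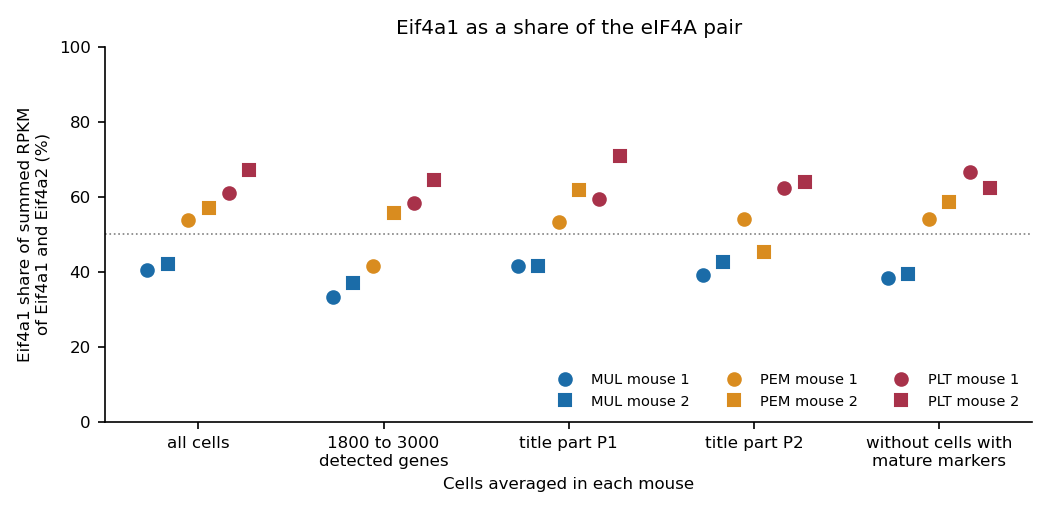
Eif4a1 as a percent of the summed mean RPKM of Eif4a1 and Eif4a2 (y axis) in each mouse, for all cells and 4 subsets (x axis); circles are mouse 1 and squares mouse 2 of a group. In every set both MUL mice (33.3% to 42.6%) lie below both PLT mice (58.4% to 70.8%).

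Among the partners of eIF4A, Eif4h, which stimulates the helicase, was at 78.9 and 74.9 RPKM in MUL, 101 and 109 in PEM and 65.9 and 34.1 in PLT mice. The 3 groups did not overlap, with PEM highest and PLT lowest (PLT minus PEM -1.12, SE 0.43, limma unadjusted p = 0.0302, adjusted p = 0.572). That difference was -0.66 without PLT mouse 2, -0.64 without cells with mature markers and -2.31 with log2 averaged over cells. Eif4b, which also stimulates eIF4A, had values of 114 and 73.2 RPKM in MUL, 64.2 and 59.4 in PEM and 74.0 and 88.7 in PLT mice, with PEM below both other groups. The PEM minus MUL difference of Eif4b was -0.56 (SE 0.40, limma adjusted p = 0.905), and 0.02 with log2 averaged over cells.

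Eif4e, the cap-binding protein, ranged from 120 to 293 RPKM over the mice, with both extremes in PLT mice. Eif4e3, a cap-binding family member, was at 42.6 and 48.8 RPKM in MUL, 45.6 and 31.7 in PEM and 27.4 and 15 in PLT mice. For it the PLT mice lay below the other 4 (PLT minus MUL -1.13, SE 0.50, limma adjusted p = 0.602), with a difference of -0.72 without PLT mouse 2, -0.52 in P1 cells and -2.11 in P2 cells. Eif4enif1, the transporter that carries eIF4E into the nucleus, was at 42.6 and 42.8 RPKM in MUL, 31.2 and 25.2 in PEM and 26 and 16.4 in PLT mice, with both MUL mice highest (PLT minus MUL -1.01, limma adjusted p = 0.624). Eif4e2 lay between 11.7 and 23.3 RPKM, and the germline form Eif4e1b was listed at 0 in every cell.

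Of the scaffolds, Eif4g1 was at 16.9 and 20.5 RPKM in MUL, 15.2 and 9.02 in PEM, 20.9 in PLT mouse 1 and 0.978 in PLT mouse 2. PLT mouse 2 stood apart. There 5 of 84 cells (5.95%, exact Clopper-Pearson 95% interval 1.96% to 13.3%) were at 1 RPKM or more, against 29% to 54.8% in the other 5 mice. The fold change of PLT minus MUL, -1.58 (SE 1.06, limma adjusted p = 0.731), thus rests on that mouse. Among cells with 1800 to 3000 detected genes the share was 1.79% in PLT mouse 2 and 32.7% to 48.4% elsewhere. Its relative Eif4g2, a cap-independent scaffold, was at 66.1 and 81.9 RPKM in the PLT mice within a range of 50.6 to 86.2 over all mice, and Eif4g3 ranged from 7.67 to 20.5 RPKM. Intervals and floors cover counting error only.

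The 4E-binding proteins were mostly represented by Eif4ebp1, at 87.0 and 148 RPKM in MUL, 219 and 184 in PEM and 125 and 152 in PLT mice. As means the PEM mice were highest (PEM minus MUL 0.82, SE 0.38, limma unadjusted p = 0.0625, adjusted p = 0.867), a difference of 0.43 without MUL mouse 1 and 1.49 without cells with mature markers. Its shares of cells at 1 RPKM or more overlapped between the groups. They were 37.2% and 55.3% in MUL, 68.8% and 44% in PEM and 24.7% and 60.7% in PLT mice. Eif4ebp2 was above 1 RPKM as a mean in PEM mouse 1 (3.13) and PLT mouse 2 (2.78) and at 0 or 0.0018 in the others. Eif4ebp3 was at 8.68 and 13.6 RPKM in MUL, 9.52 and 9.84 in PEM and 2.86 and 3.05 in PLT mice (PLT minus MUL -1.59, limma adjusted p = 0.594, and -0.69 in P1 and -3.66 in P2 cells). Its PLT minus PEM difference of -1.43 turned positive in P1 cells (0.83). Of its exonic bases 67.3% also lie in exons of another annotated protein-coding gene on the same strand.

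**Figure D4:**
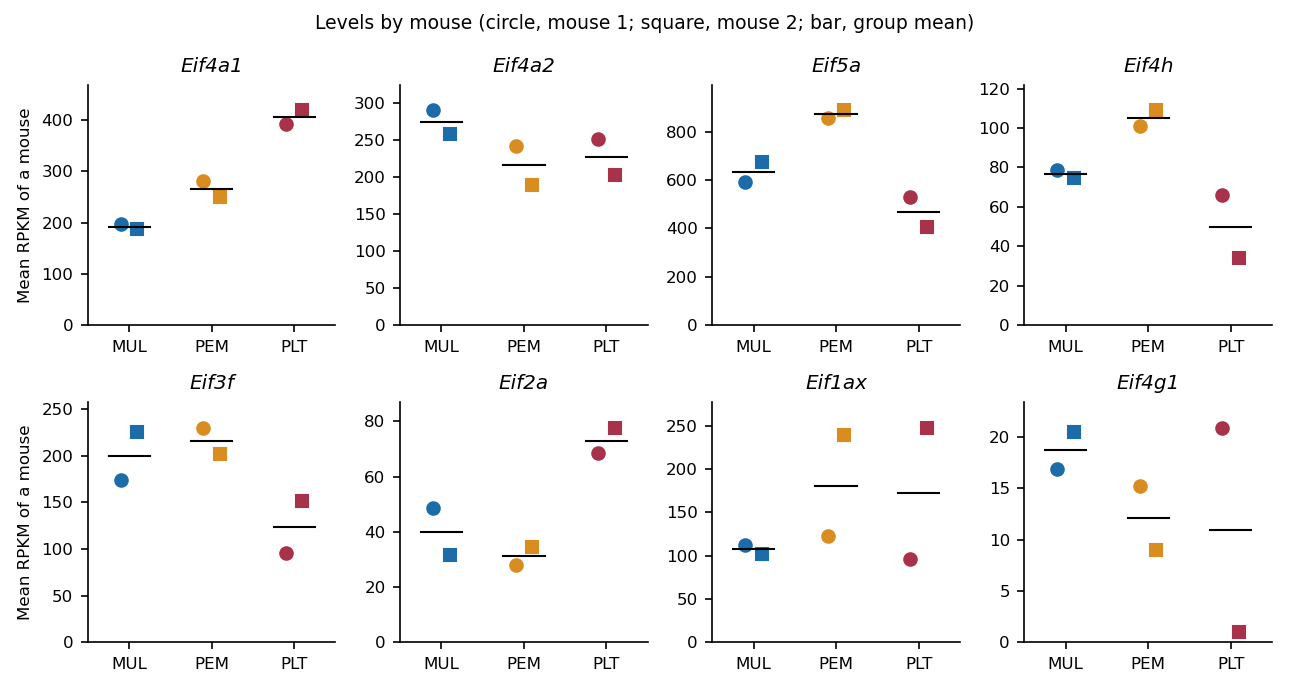
Mean RPKM per mouse (y axis) of 8 members in the 3 groups (x axis); circles are mouse 1, squares mouse 2 and bars the mean of both. Eif4a1 steps from 192 to 265 to 406 RPKM, Eif5a and Eif4h are highest in PEM, Eif1ax is high in mouse 2 of PEM and of PLT, and Eif4g1 is near 0 in PLT mouse 2.

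The ternary complex is built on the 3 subunits of eIF2. Eif2s1, the α subunit phosphorylated by the kinases, ranged from 69.1 to 206 RPKM, again with both extremes in PLT mice. Eif2s2, the β subunit, was at 117 and 97.6 RPKM in MUL, 109 and 137 in PEM and 165 and 214 in PLT mice. Its PLT mice lay above the other 4 (PLT minus MUL 0.80, SE 0.35, limma unadjusted p = 0.0489, adjusted p = 0.594), with a difference of 1.31 in P1 cells, 0.52 in P2 cells and 1.41 with log2 averaged over cells. Eif2s3x, the X-linked γ subunit, was at 13.3 RPKM in PLT mouse 1 and 31.7 to 45.6 in the others, and 34.6% of its 50-base windows occur in other genes.

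Eif2a, an initiator tRNA-binding protein that is not a subunit of eIF2, was at 48.5 and 31.5 RPKM in MUL, 27.9 and 34.4 in PEM and 68.4 and 77.8 in PLT mice. Both PLT mice lay above the other 4. PLT minus PEM was 1.21 (SE 0.44, limma unadjusted p = 0.0246, adjusted p = 0.563), but 0.02 with log2 averaged over cells, and PLT minus MUL 0.88 (SE 0.44, limma adjusted p = 0.626). Eif2d, which acts in recycling and non-canonical initiation, was at 15.8 and 32.4 RPKM in MUL, 41.8 and 53.2 in PEM and 34.3 and 22.4 in PLT mice, with PEM highest (PEM minus MUL 1.02, limma adjusted p = 0.87). In P2 cells alone that difference was -1.04, and without MUL mouse 1 it was 0.53.

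The 5 subunits of the exchange factor eIF2B did not move together. Eif2b1 was at 41.8 and 22.9 RPKM in MUL, 51.7 and 40.1 in PEM and 66.8 and 79.9 in PLT mice (PLT minus MUL 1.21, SE 0.46, limma unadjusted p = 0.0302, adjusted p = 0.548). Eif2b3 was at 6.76 and 14.5 RPKM in MUL, 14.4 and 16.0 in PEM and 26.5 and 30.3 in PLT mice (1.42, SE 0.60, limma unadjusted p = 0.0436, adjusted p = 0.586). For both subunits the PLT mice lay above the other 4. The PLT minus MUL difference of Eif2b1 was 0.79 without MUL mouse 2, and that of Eif2b3 was 0.92 without MUL mouse 1, 0.90 without cells with mature markers and 0.80 with log2 averaged over cells. Eif2b4 had the opposite order, with 27.7 and 27.4 RPKM in MUL, 23.5 and 10.2 in PEM and 6.38 and 15.6 in PLT mice (-1.37, SE 0.67, limma adjusted p = 0.625), a difference of -0.78 without PLT mouse 1. Eif2b2 was lowest in PEM mouse 2 at 9.96 RPKM and lay between 24.4 and 62.8 in the others (PEM minus MUL -1.26, and -0.28 without that mouse). Eif2b5, the catalytic subunit, was at 13.5 to 25.5 RPKM in 5 mice and at 0 in PEM mouse 2, where 0 of 25 cells allows a share of up to 12% by 3 counts of the total, or 13.7% as the exact Clopper-Pearson 95% upper bound. Without that mouse its PEM minus MUL difference of -2.35 was -0.33. The 5 subunits together came to 142 ± 25.9 RPKM in MUL mice, 111 ± 49.8 in PEM mice and 174 ± 14.4 in PLT mice (SD, n = 2 mice).

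The eIF2 kinases were the lowest of the canonical groups, with summed levels of 31.2 and 49.1 RPKM in MUL, 45.8 and 11.1 in PEM and 26.3 and 23.3 in PLT mice. Eif2ak2, the double-stranded RNA sensor PKR, was at 12.4 and 14.2 RPKM in MUL, 10.3 and 7.27 in PEM and 5.19 and 5.30 in PLT mice. Its 3 groups did not overlap, although the fold change of PLT minus MUL, -1.19 (SE 0.66), had a limma adjusted p of 0.676. Eif2ak1, the haem-regulated kinase HRI, ranged from 3.77 to 32.3 RPKM. Eif2ak3 (PERK, of the endoplasmic reticulum) reached at most 6.88 RPKM and Eif2ak4 (GCN2, the amino acid sensor) at most 5.11 RPKM.

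The eIF1 group was set by symbol and includes Eif1ad, at 25.0 to 48.5 RPKM. Its genes summed to 593 and 465 RPKM in MUL, 688 and 666 in PEM and 543 and 926 in PLT mice. The PLT mice thus lay furthest apart. Eif1, which guards start codon choice, was at 246 and 194 RPKM in MUL, 269 and 205 in PEM and 224 and 363 in PLT mice. Eif1ax, an X-linked gene for eIF1A, was at 113 and 102 RPKM in MUL, 123 and 239 in PEM and 96.7 and 248 in PLT mice. The values above 200 RPKM were those of the mice recorded as female, 1 in PEM and 1 in PLT; the part of recorded sex was not tested, and sex, mouse and clone cannot be told apart. Its autosomal counterpart Eif1a was at 88.0 to 126 RPKM in 5 mice and 188 in PLT mouse 2. Eif1b, a close relative of Eif1, ranged from 49.2 to 131 RPKM.

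The eIF3 complex, which bridges the small ribosomal subunit and eIF4G, made the largest share of the members' summed level. Its genes summed to 1688 and 1921 RPKM in MUL, 2205 and 1798 in PEM and 1691 and 2257 in PLT mice, so that the groups overlapped. Of its 12 tested genes 9 were higher and 3 lower in PLT than in MUL mice, with a median of 0.09. Of all genes 41.6% were higher in that contrast. None of the 12 had an unadjusted p under 0.05 there, and the direction count was not tested. Eif3a, the largest subunit, was at 40.9 to 52.9 RPKM in all 6 mice, and Eif3m lay within 212 to 264 RPKM. Eif3e was at 275 to 360 RPKM in 5 mice and at 523 in PLT mouse 2. Eif3k ranged from 243 to 426 RPKM and Eif3h from 109 to 190 RPKM.

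Eif3f alone among the eIF3 genes had a PLT minus PEM difference with an unadjusted p under 0.05. It was at 174 and 225 RPKM in MUL, 230 and 202 in PEM and 95.3 and 151 in PLT mice (-0.84, SE 0.36, limma unadjusted p = 0.0484, adjusted p = 0.595). Both PLT mice lay below the other 4, and the difference from PEM was -0.51 without PLT mouse 1 and -2.38 with log2 averaged over cells. The paralogs Eif3j1, listed at 0 in every mouse, and Eif3j2, with a mean of 0.00354 RPKM, share sequence. Of their 50-base windows 91.8% in Eif3j2 and 36.9% in Eif3j1 occur in other genes, so that their values are uncertain.

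Among the eIF5 genes and Eif6, which act at subunit joining and beyond, Eif5a was at 591 and 675 RPKM in MUL, 856 and 888 in PEM and 530 and 407 in PLT mice. The 3 groups did not overlap, with PEM highest and PLT lowest. PLT minus PEM was -0.91 (SE 0.28, limma unadjusted p = 0.0112, adjusted p = 0.545), and between -1.96 and -0.72 under the alternatives run. PEM minus MUL was 0.47 (SE 0.28, limma adjusted p = 0.887), and between 0.15 (quantile normalization) and 1.04 under the alternatives run. Detected genes per cell were also highest in both PEM mice. Among cells with 1800 to 3000 detected genes PLT minus PEM was -0.81. Medians of detected genes there were still 2623 and 2667 in PEM against 1993 and 2460 in PLT mice. The part of detected genes in this difference was not tested. The Eif5a paralog Eif5a2 had at most 6.20 RPKM in a mouse. Eif5, the GTPase-activating protein of eIF2, was at 149 to 244 RPKM and its PLT mice overlapped the others. Eif5b ranged from 14.1 to 31.6 RPKM. Eif6, which keeps large subunits from joining early, was at 97.0 and 130 RPKM in MUL, 141 and 43.8 in PEM and 78.5 and 57.8 in PLT mice. The 4 Argonaute genes listed under Eif2c symbols summed to 5.26 to 10.5 RPKM in a mouse.

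The number of members seen in a cell followed the number of genes detected in it. A cell had a median of 20 members at 1 RPKM or more (range 5 to 43). The medians of the mice were 18 and 20 in MUL, 26 and 22 in PEM and 14 and 23 in PLT. Detected genes, as counted by the authors, had medians of 2210 and 2553 in MUL, 3186 and 2752 in PEM and 1869 and 2596 in PLT mice. Within mice the 2 counts correlated across cells at r = 0.84 to 0.97, as a description, since both are counts of the same cell's detected genes. Members were 0.75% to 0.89% of the detected genes in the median cell of each mouse.

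**Figure D5:**
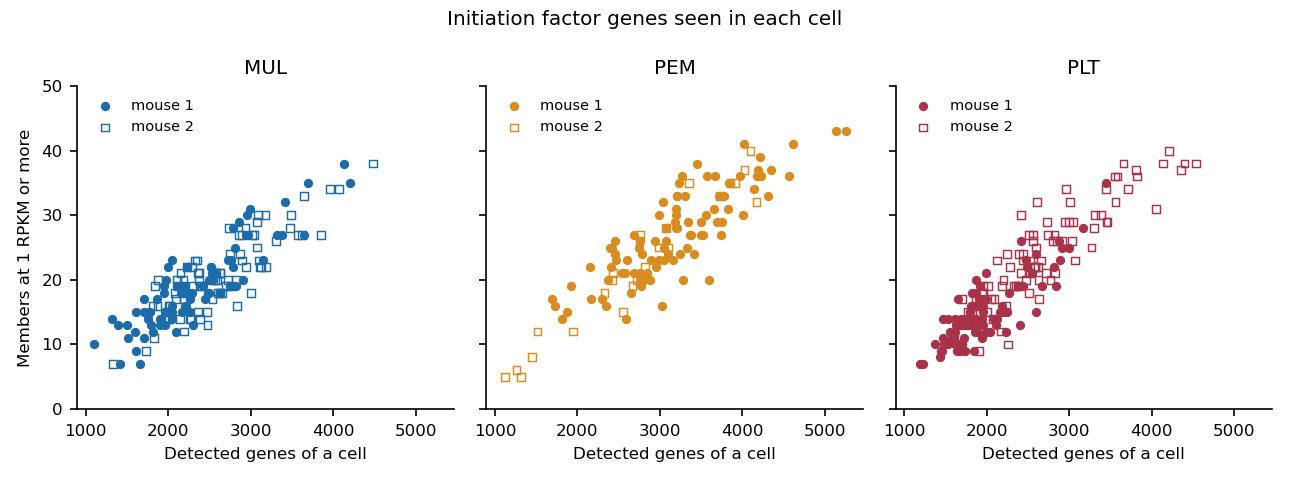
Members at 1 RPKM or more in a cell (y axis) against the detected genes of that cell (x axis), 1 point per cell, with filled circles for mouse 1 and open squares for mouse 2 of each group. Cells of all groups lie along a common rising band, with the PEM 1 cells further to the right (median 3186 detected genes) than those of PLT 1 (median 1869).

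Shares of cells at 1 RPKM or more were higher in both PEM mice than in both MUL mice for 30 of 53 members (56.6%), where 36.7% of all genes were, and lower for 0, where 6% of all genes were. Among cells with 1800 to 3000 detected genes the share was higher for 20 members (37.7%; all genes 19.4%) and lower for 9 (17%; all genes 14%). In that window the PEM mice keep 36 and 11 cells, and their median cell still had 2623 and 2667 detected genes against 2262 and 2369 in MUL mice. The part of detected genes in this difference was not tested further. In PLT against PEM mice the share was lower for 21 members (39.6%; all genes 34.2%) and higher for 0 (all genes 2.84%). Within the window it was lower for 12 (22.6%; all genes 22.1%) and higher for 4 (7.55%; all genes 10.5%). In PLT against MUL mice it was higher for 4 (7.55%; all genes 7.32%), namely Eif2a, Eif2b1, Eif2b3 and Eif4a1, and lower for 10 (18.9%; all genes 22.1%).

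Beyond the Eif symbols, other genes of the pathway were followed in 5 lists, and 0 of them passed the adjusted limma threshold in any contrast. Of 8 elongation genes, Eef1b2 was higher in PEM than in MUL mice with an unadjusted p under 0.05. Of 6 termination and recycling genes and 2 of mitochondrial initiation, none had such a p. Among 17 regulators at the cap and poly(A) tail 1 had such a p in PLT minus MUL, 3 in PEM minus MUL (Pdcd4 higher, Paip1 and Paip2 lower) and 2 in PLT minus PEM (Paip1 higher, Mknk1 lower). The one higher in PLT than in MUL mice was Pdcd4, whose protein binds and inhibits eIF4A. Pdcd4 was at 234 and 162 RPKM in MUL, 288 and 421 in PEM and 432 and 571 in PLT mice, the group order of Eif4a1 (PLT minus MUL 1.35, SE 0.35, limma unadjusted p = 0.00464, adjusted p = 0.48). Paip1, a poly(A)-binding protein partner, was at 164 and 115 RPKM in MUL, 65.4 and 60.7 in PEM and 122 and 107 in PLT mice, lowest in PEM.

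Among 13 start-site and eIF2 regulators Ppp1r15a was the 1 with an unadjusted p under 0.05 in PLT minus MUL, and was lower also in PEM than in MUL and in PLT than in PEM mice at that threshold. The counts of all 5 lists stand beside 2.44% higher and 5.96% lower over all genes in PLT minus MUL, 2.8% and 2.79% in PEM minus MUL, and 2.49% and 5.88% in PLT minus PEM. Ppp1r15a encodes GADD34, the inducible phosphatase subunit that reverses eIF2α phosphorylation. Its values were 77.6 and 65.7 RPKM in MUL, 25.8 and 29.9 in PEM and 13.8 and 10.7 in PLT mice, without overlap of the groups. PLT minus MUL was -2.46 (SE 0.47, limma unadjusted p = 0.000693, adjusted p = 0.342). Denr, a recycling and reinitiation factor, was at 79.3 and 84.8 RPKM in MUL, 61.9 and 24.8 in PEM and 80.4 and 132 in PLT mice, higher in PLT than in PEM mice with a limma unadjusted p of 0.0279 (adjusted p = 0.564).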

How the data were processed

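Libraries of index-sorted single cells were prepared with a SMARTer Ultra Low RNA kit, as the labels state. The deposited table gives RPKM values made by the authors for 22645 gene symbols. The submitters' processing notes name TopHat, featureCounts and mm10, with versions, strand setting and read total not given in the sources used here. A second deposited table holds, per the file headers, mapped reads and detected genes as counts per cell, mitochondrial reads as a percent, and a recorded sex without saying whether it is that of donor or recipient.

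The mouse was the replicate: each of the 6 mice was given the mean RPKM of its cells, and mice were numbered in accession order. The 11337 genes that reached a mean of 1 RPKM in 2 or more mice were tested on log2(mean RPKM + 1), a scale that understates changes of low genes. In limma 3.58.1 (R 4.3.3) 1 mean per group was fitted over all mice with a trended eBayes variance (3 residual and 8.33 total degrees of freedom). Benjamini-Hochberg adjustment over all genes had a threshold of 0.05. The p-values reflect how far the 2 mice of each group lie apart, which may be partly technical. The fit was run on simulated mice with independent noise and added changes larger than nearly all differences of the members. That run does not show how well differences of the size seen here would be found.

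The members and lists were chosen with earlier results of these data known. Named with values were the 8 most abundant members, the 4 with the smallest unadjusted p in each contrast and direction, and a fixed list of factor subunits; others are given by range, and pathway genes where the unadjusted p was under 0.05. A 0 is given as listed at 0, as even Gapdh was at 0 in 45 cells (Actb in 0 cells). No cell was left out, and doublets were not called because cells had been sorted singly. Shared sequence was counted as the percent of exonic 50-base windows found in other GENCODE M21 genes: 12 of 58 members had at least 10%. Protein sequences were not used here. Alternatives were another pseudocount (0.1 or 10), filter, scaling, average or fit, subsets of cells, and leaving out each mouse; recorded sex as a covariate and leaving out the Eif2c genes were added after seeing the data.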

Additional observations from a re-analysis of the deposited data

How the results depend on the processing

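No paired analysis was possible because mouse numbers follow accession order and link no mouse of a group to one of another. Under every alternative run 0 members passed the adjusted limma threshold in any contrast. Fold changes of named members kept their direction in 448 of 454 cases. The 6 others were, in PEM minus MUL, Eif2d in P2 cells (-1.04) and, with log2 averaged over cells, Eif4b (0.02) and Eif4enif1 (0.10), and, in PLT minus PEM, Eif4ebp3 in P1 cells (0.83), without cells with mature markers (0.93) and with 1800 to 3000 detected genes (0.41). The causes were not tested. The named members of a contrast had been chosen by their unadjusted p in these same mice. Another filter, 2 groups in the fit or leaving out a mouse of the group outside the contrast left a fold change as it was. The count of kept directions is therefore a description and no test of robustness.

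The median fold change of the members was 0.25 in PLT minus MUL with median-ratio scaling (0.00 to 0.12 leaving out 1 mouse). In PEM minus MUL it was 0.22 in P1 cells, -0.27 in P2 cells and 0.54 with log2 averaged over cells (0.00 to 0.30 leaving out 1 mouse). In PLT minus PEM it was 0.27 in P2 cells, -0.55 with log2 averaged over cells and 0.17 with median-ratio scaling (-0.19 to 0.19 leaving out 1 mouse). The factors of median-ratio scaling alone amount to 0.17 on a log2 scale without a pseudocount in PLT minus MUL and 0.14 in PLT minus PEM, and genes of low level moved by less.

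Members with an unadjusted p under 0.05 numbered 4 in PLT minus MUL, and 2 in P2 cells, with sex as a covariate, with 2 groups in the fit or in the window of detected genes, 1 without cells with mature markers, 9 without the filter, and 2 to 11 leaving out 1 mouse (11 without PLT mouse 1). In PEM minus MUL they numbered 2 with log2 averaged over cells, 1 without the filter, 2 without cells with mature markers and 5 in the window. In PLT minus PEM they numbered 4, and 6 without the filter or in the window. In P2 cells, without cells with mature markers or with 2 groups in the fit they numbered 2. Shares of all genes with such a p were not computed for these alternatives. Whether the counts of members exceed those shares is therefore not known. Genes of the whole table past the adjusted threshold in PLT minus MUL numbered 8 with a 10 RPKM filter, 19 without a filter, 2 with pseudocount 10, 4 with quantile normalization, and 0 in P1 cells, P2 cells, the window, with log2 averaged over cells, pseudocount 0.1, sex or 2 groups (0 to 1 leaving out 1 mouse). In PEM minus MUL they numbered 1 with the 10 RPKM filter and 9 without a filter, and in PLT minus PEM 4 without a filter. Shares of cells moved by more than the spread between mice in 284 of 702 cases, 103 of them of 117 with a cut above 0 in place of 1 RPKM, since many values lie between 0 and 1.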
